A study of Mus musculus with 4 samples.

Results

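Genes of antigen presentation and of the interferon response were followed across 4 sections of Nf1+/- mouse brain. The 9 genes were chosen by symbol from the 32285 genes of the count tables: B2m, H2-D1, H2-K1, H2-T23, Irf1, Bst2, Isg15, Cxcl10 and Ifi27. All 9 were found, each under 1 identifier. The study examined how loss of 1 Nf1 allele alters oligodendrocyte progenitor cells (OPCs), and it profiled fresh frozen brain on Visium slides, on which a barcoded spot captures the polyadenylated RNA of the tissue above it. All 4 sections carried the same genotype, Nf1+/-, and the methods place the mice on a C57/BL6 background. The labels name no treatment or age for a section. Whether each section is a separate mouse is not stated in them, so n is the number of sections. P-values refer to a spread between sections, which may be technical. That spread was estimated partly from all genes together, so a p-value does not measure the spread of its gene alone. No section of another genotype was analysed here.

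MHC class I molecules display fragments of a cell's own proteins on its surface, where CD8 T cells and natural killer cells read them. Each molecule pairs a heavy chain, such as those encoded by H2-D1, H2-K1 and H2-T23, with beta-2-microglobulin, the product of B2m. Interferons raise the transcription of this machinery and of many antiviral genes through STAT and IRF factors, and neurons of the healthy brain are known for low class I levels compared with vessels, meninges and microglia. Irf1 encodes a transcription factor induced by interferon gamma. Bst2 encodes tetherin, which holds budding viruses on the cell surface, Isg15 a ubiquitin-like modifier, Cxcl10 a chemokine that attracts activated T cells, and Ifi27 a small interferon-inducible protein of intracellular membranes.

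The heavy-chain genes lie together in the MHC region of chromosome 17, and the others are spread over the genome (GRCm38.p6 coordinates from RefSeq, the same assembly as the mm10 of the submitters' processing notes). H2-K1 (ENSMUSG00000061232) spans chr17:33996012-34000619, H2-D1 (ENSMUSG00000073411) chr17:35263094-35267497 and H2-T23 (ENSMUSG00000067212) chr17:36029977-36032701. B2m (ENSMUSG00000060802) spans chr2:122147687-122153082, Irf1 (ENSMUSG00000018899) chr11:53770014-53778374 and Bst2 (ENSMUSG00000046718) chr8:71534255-71537472. Isg15 (ENSMUSG00000035692) spans chr4:156199424-156200818, Cxcl10 (ENSMUSG00000034855) chr5:92346638-92348889 and Ifi27 (ENSMUSG00000064215) chr12:103434189-103440245.

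Stretches upstream of 7 of the genes are printed because the same short motifs recur in them while the genes differed in where they were found. Promoter sequence was at hand for 8 of the 9 genes, and Ifi27, which had none, was not searched. The 250 bases before each RefSeq start were searched on both strands for 2 forms of the interferon-stimulated response element (GAANNGAAA, and a long form with 1 more A ahead of the free bases), for TTCNNNGAA, the gamma-activated site, for GGGATTCCC, the core of the class I enhancer A, and for CCAATC, the core of the class I Y box. Capitals mark the matches, and each sequence reads 5′ to 3′ on the strand of its gene. The H2-K1 stretch lies within the gene span given above, ahead of a start listed inside that span.
H2-K1 (chr17:34000417-34000469, minus strand): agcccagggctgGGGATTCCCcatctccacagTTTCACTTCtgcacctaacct
H2-D1 (chr17:35262912-35262964, plus strand): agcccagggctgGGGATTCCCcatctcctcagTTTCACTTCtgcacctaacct
B2m (chr2:122147536-122147569, plus strand): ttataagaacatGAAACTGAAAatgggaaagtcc
H2-T23 (chr17:36032804-36032837, minus strand): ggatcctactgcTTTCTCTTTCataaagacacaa
Bst2 (chr8:71537575-71537620, minus strand): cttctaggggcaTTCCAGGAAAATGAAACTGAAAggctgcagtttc
Isg15 (chr4:156200863-156200908, minus strand): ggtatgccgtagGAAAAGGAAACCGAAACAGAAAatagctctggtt
Cxcl10 (chr5:92349081-92349114, minus strand): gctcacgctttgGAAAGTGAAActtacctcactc

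H2-K1 and H2-D1 held GGGATTCCC and, on the opposite strand beside it, GAANNGAAA, in stretches of nearly the same letters. GGGATTCCC occurred in 0.301% of 32851 promoters of the same length, GAANNGAAA in 6.31% and the long form in 2.98%. B2m, H2-T23 and Cxcl10 held 1 match to the long form, Bst2 2 overlapping matches and Isg15 3 overlapping ones, and Isg15 held the short form further upstream. Bst2 also held TTCNNNGAA, found in 7.02% of promoters, overlapping its other matches. The letters before 1 of the listed starts of Irf1 matched TTCNNNGAA and GGGATTCCC but neither form of the response element. CCAATC was found before B2m, H2-D1, H2-T23 and Cxcl10 and before the second listed start of H2-K1, against 14.6% of promoters. A match is a run of letters and was not tested as a binding site.

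Spots with at least 500 UMIs (unique molecular identifiers, each counting 1 captured RNA molecule) were used: 1537, 2358, 2294 and 1431 spots in sections 1 to 4, with 23472790, 37001945, 22012734 and 19261103 UMIs. The median spot held 14922, 15296.5, 8862.5 and 12232 UMIs, so section 3 was the shallowest per spot. A spot holds several cells, and more cells of a type cannot be told apart from more RNA per cell. The sections shared 427 to 1989 spot barcodes in pairs, which name slide positions, and 0 spots held identical counts. Brain markers were present: outside choroid plexus-marker spots, neuron markers (5 of 5 detected) summed to 3243 to 4541 UMIs per 1000000 and mature oligodendrocyte markers to 1298 to 2174. Of the T and NK cell list, Cd3e had 0 UMIs, Cd3g 2, Gzmb 1, Cd8a 5, Nkg7 6 and Cd3d 26 over the 4 sections, and nearly all UMIs of that list were Trbc2 (3251) and Cd4 (1934).

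B2m was found throughout the tissue, and the 3 heavy chains at lower levels. The highest section was 1.10 times the lowest for H2-D1, 1.41 times for H2-K1 and 1.37 times for H2-T23. In CPM (UMIs per 1000000 UMIs of the section), sections 1 to 4 gave 139, 145, 127 and 146 for B2m, out of 3261, 5372, 2801 and 2813 UMIs, with a mean of 139 ± 8.67 (SD, n = 4). H2-D1 measured 40.004, 40.8, 41.9 and 44.1 CPM (41.7 ± 1.79). H2-K1 measured 34.8, 34.3, 32.9 and 24.6 CPM (31.6 ± 4.75), and its section 4 interval (22.4 to 26.9) lay below those of the other sections (30.5 to 35.4 in section 3). Section 4 was lowest for H2-K1 and highest for H2-D1. The nonclassical heavy chain H2-T23, whose product Qa-1 presents leader peptides to natural killer cell receptors, measured 13.1, 12.4, 15.4 and 11.3 CPM (13.02 ± 1.75), with section 3 highest. Intervals are exact 95% Poisson intervals and cover counting error only. H2-D1, H2-K1 and H2-T23 share long similar stretches, so reads may be divided between them or lost, and their separate levels are uncertain to that extent.

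The interferon response genes fell into 1 abundant gene, 3 scarce genes and 1 near the limit of detection. Ifi27 measured 54.8, 39.8, 42.9 and 47.0 CPM (46.1 ± 6.51), highest in section 1. Bst2 measured 6.09, 5.22, 3.18 and 5.14 CPM (4.91 ± 1.23), lowest in section 3, from 143, 193, 70 and 99 UMIs. Irf1 measured 2.98, 2.54, 3.18 and 2.80 CPM (2.88 ± 0.272), and the 4 intervals overlapped. Isg15 measured 1.11, 2.89, 2.41 and 2.23 CPM (2.16 ± 0.755). Its section 1 value came from 26 UMIs (interval 0.724 to 1.62) and lay below the interval of section 2 (2.37 to 3.49, 107 UMIs) and of section 3 (1.80 to 3.15). Cxcl10 had 3, 19, 4 and 1 UMIs, or 0.128, 0.513, 0.182 and 0.0519 CPM. A gene with 0 UMIs could have had up to 0.128, 0.0811, 0.136 and 0.156 CPM, the level of 3 UMIs, so the Cxcl10 counts of sections 1, 3 and 4 were at, just above and below this limit, and section 2 alone stood clearly over it.

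**Figure D1:**
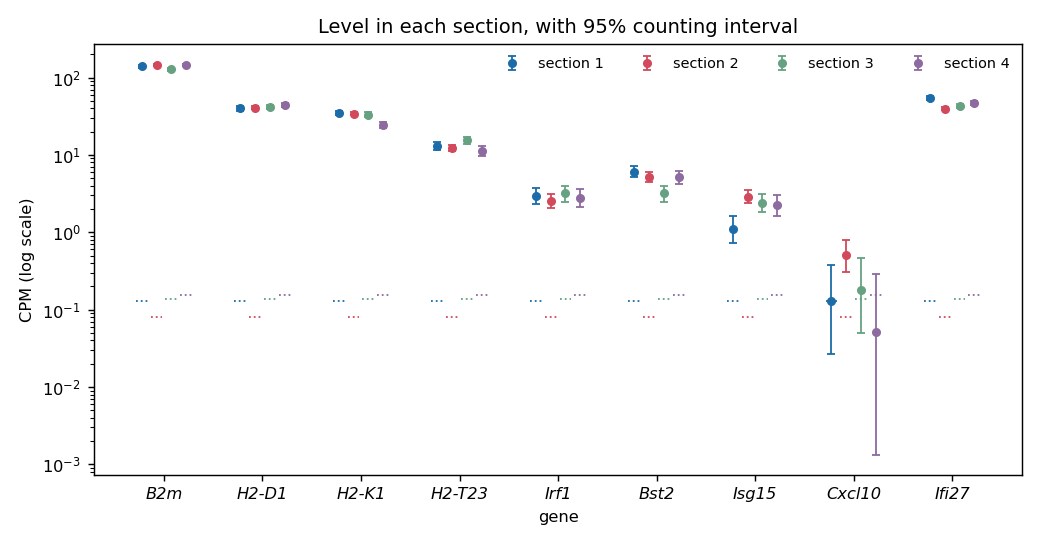
Level of each gene (CPM, log scale) in sections 1 to 4, with exact 95% Poisson intervals as bars and, as short dotted lines, the level that 3 UMIs of a section give. B2m sits between 127 and 146 CPM in all sections, and Cxcl10 between 0.0519 and 0.513 CPM, at or near the dotted limits in 3 of the 4 sections.

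Most spots held B2m and few held the scarce interferon genes. At least 1 B2m UMI was found in 78.5, 80.5, 61.6 and 74.6% of spots, and up to 24 UMIs in 1 spot. For H2-D1 the share was 30.5 to 42.7%, for H2-K1 25.4 to 36.6%, for H2-T23 12.5 to 17.2% and for Ifi27 32.3 to 48.6%. Bst2 was found in 2.92 to 7.34% of spots, Irf1 in 2.88 to 4.23%, Isg15 in 1.69 to 4.03% and Cxcl10 in 0.0699 to 0.551%. These shares follow depth. Once the 72, 143, 427 and 207 spots under 5000 UMIs were dropped, the mean share was 77.4% for B2m and 6.07% for Bst2, and after each remaining spot was thinned to 5000 UMIs it was 47.1% ± 1.86 and 2.32% ± 0.650 (SD, n = 4 sections). On thinned counts B2m ranged from 44.5% in section 3 to 48.8% in section 2, so most of the shortfall of section 3 was not seen at equal depth. No spot class lacks these genes with certainty, so no background share was set, and RNA spreading between spots was not tested.

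Spots were then grouped by marker genes that included none of the 9 genes. A score compared the UMIs of 8 endothelial, fibroblast, OPC or microglial markers in a spot with those predicted from its depth, and the top 10% per section were taken as vascular-, meningeal-, OPC- and microglia-marker spots (154, 236, 229 and 143 of each kind in sections 1 to 4). No cell type was assigned to a spot. Choroid plexus-marker spots held at least 3 of 10 epithelial markers and numbered 189, 4, 7 and 76. UMIs were summed over the picked and over all other spots of each section and compared with edgeR's quasi-likelihood test, the section as a block. Of the 9 genes, 8 passed the filter on low counts in every comparison, and Cxcl10 did not and was not tested. The groups overlap: 16.1 to 29.2% of meningeal-marker spots of a section were also vascular-marker spots, where 10% of all spots were.

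In vascular-marker spots 6 of the 8 tested genes were higher than in the other spots, with the largest fold change for H2-K1. Over all 14259 genes tested, 6.21% were called higher and 2.92% lower. B2m measured 199.5, 203, 181 and 174 CPM in the picked spots of sections 1 to 4 against 132, 139, 121 and 143 in the other spots. H2-K1 and H2-D1 encode the classical class I heavy chains. H2-K1 measured 61.1, 68.4, 57.4 and 39.3 CPM against 31.9, 30.8, 30.3 and 23.1, and H2-D1 66.4, 67.0, 74.3 and 53.0 CPM against 37.2, 38.1, 38.4 and 43.2. Each of these 3 genes was higher in the picked spots of all 4 sections. The log2 fold change was 1.00 for H2-K1 (standard error 0.0783, edgeR adjusted p = 6.28e-14), 0.77 for H2-D1 (0.0779, edgeR adjusted p = 1.76e-10) and 0.52 for B2m (0.0465, edgeR adjusted p = 3.75e-12). H2-T23 did not pass (0.33, standard error 0.14, edgeR adjusted p = 0.153), with 19.1 against 11.7 CPM in section 2 and 15.04 against 15.4 in section 3.

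Among the interferon genes, Bst2 measured 8.35, 10.7, 5.17 and 8.54 CPM in vascular-marker spots against 5.85, 4.65, 2.97 and 4.80 (log2 fold change 0.89, standard error 0.202, edgeR adjusted p = 0.00167). Isg15 measured 1.76, 5.22, 3.29 and 5.13 CPM against 1.04, 2.65, 2.31 and 1.94 (0.95, standard error 0.302, edgeR adjusted p = 0.0361), from 38 UMIs in the picked spots. Both genes were higher in all 4 sections, but their picked and other levels overlapped between sections. Ifi27 rose by 0.25 (standard error 0.0758, edgeR adjusted p = 0.0298), and Irf1 stood at 0.46 (0.284, edgeR adjusted p = 0.397). No gene of the 9 was called lower by edgeR, at an unadjusted p under 0.05 or by DESeq2 in this or any of the 4 comparisons that follow. Mural cell markers (8 of 8 detected) summed to 215 to 430 CPM in vascular-marker spots against 104 to 155, and border macrophage markers (6 or 7 of 7) to 34.7 to 99.99 against 18.5 to 27.0. Meningeal markers (7 or 8 of 8) summed to 120, 187, 68.6 and 48.4 CPM in sections 1 to 4 against 31.3, 35.4, 27.4 and 25.9. The part of these 3 lists in the result was not tested. Over 13 alternatives Isg15 lost its call in 7, Ifi27 in 8 and Bst2 in 3 (highest adjusted p = 0.427, 0.691 and 0.373). Without section 2 none of these 3 genes was called (edgeR adjusted p = 0.248, 0.463 and 0.115), Isg15 was also not called without section 1 (0.0637) or 4 (0.151), and Ifi27 not without section 3 (0.0623) or 4 (0.0779).

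In meningeal-marker spots 6 of the 8 tested genes were higher, and Bst2 showed the largest difference. Over 14348 genes, 10.2% were called higher and 7.78% lower. Bst2 measured 25.7, 15.6, 6.62 and 11.8 CPM against 4.16, 4.21, 2.87 and 4.60 (log2 fold change 1.92, standard error 0.223, edgeR adjusted p = 8.24e-06). The picked spots, with 8.94, 8.81, 8.24 and 7.48% of a section's UMIs, held 37.8, 26.4, 17.1 and 17.2% of its Bst2 UMIs. Bst2 was higher in the picked spots of all 4 sections. In sections 1 and 4, 21.4 and 20.3% of the meningeal-marker spots were also choroid plexus-marker spots. Choroid plexus-marker spots held 46.2 and 16.2% of the Bst2 UMIs of these sections, and their part in the Bst2 result was not tested. Over 13 alternatives the Bst2 log2 fold change ran from 1.08 to 2.39 and kept its call. H2-K1 measured 68.1, 83.4, 65.6 and 37.5 CPM against 31.5, 29.5, 30.0 and 23.6 (1.20, standard error 0.104, edgeR adjusted p = 1.9e-07). B2m measured 208, 224, 214 and 209 CPM against 132, 138, 119 and 141 (0.71, standard error 0.0533, edgeR adjusted p = 3.2e-08). H2-D1 measured 66.7, 81.0, 73.9 and 47.2 CPM against 37.4, 36.9, 39.0 and 43.9 (0.84, standard error 0.113, edgeR adjusted p = 4.06e-05). Section 4 had the smallest difference for H2-D1 and for H2-K1.

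Ifi27 and Irf1 were higher in meningeal-marker spots with sections that disagreed in size. Ifi27 measured 129.6, 49.1, 52.4 and 78.4 CPM against 47.5, 38.9, 42.1 and 44.4 (log2 fold change 0.80, standard error 0.137, edgeR adjusted p = 0.000451). The high sections, 1 and 4, are those whose meningeal-marker spots held choroid plexus markers, at 643 and 491 CPM against 16.3 and 19.8 in sections 2 and 3. Spots of the vascular, choroid plexus, OPC and microglia sets were then left out together. Ifi27 in that setting stood at 0.24 and was not called (edgeR adjusted p = 0.267), whereas Bst2, B2m, H2-D1 and H2-K1 were. The part of choroid plexus-marker spots in the Ifi27 result was not tested. Irf1 measured 8.10, 6.75, 3.86 and 1.39 CPM against 2.48, 2.13, 3.12 and 2.92 (1.06, standard error 0.342, edgeR adjusted p = 0.0376), lower than the other spots in section 4 and from 48 UMIs in all. Irf1 lost its call in 7 of 13 alternatives, among them without section 1 (edgeR adjusted p = 0.257) and without section 2 (0.269). Isg15 (0.41, standard error 0.415, edgeR adjusted p = 0.567) and H2-T23 (0.35, 0.144, edgeR adjusted p = 0.112) did not pass. Border macrophage markers (7 of 7 detected) summed to 84.3 to 147 CPM against 14.5 to 22.7, and their part in the result was not tested.

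Choroid plexus-marker spots differed from the other spots in Bst2 and Ifi27, and no class I gene among the 9 genes was called. Over 14140 genes, 5.05% were called higher and 2.52% lower. Ifi27 measured 123, 48.6, 168 and 143 CPM against 43.6, 39.8, 42.5 and 43.9 (log2 fold change 1.48, standard error 0.215, edgeR adjusted p = 7.12e-10). Of the Ifi27 UMIs of section 1, 31.9% lay in these spots, with 14.2% of its total. Bst2 measured 19.8 CPM (66 UMIs) against 3.82 in section 1 and 27.0 CPM (16 UMIs) against 4.45 in section 4, and had 0 UMIs in the 4 and 7 picked spots of sections 2 and 3, where 3 UMIs would equal 36.4 and 41.9 CPM. The Bst2 log2 fold change was 2.18 (standard error 0.405, edgeR adjusted p = 3.97e-06), and it rests on sections 1 and 4. DESeq2 gave 1.81 and did not call it (adjusted p = 0.218). Ependymal markers (8 of 8 detected outside section 2) summed to 321, 48.6, 1354 and 516 CPM against 38.2, 34.6, 38.5 and 17.1. Meningeal markers summed to 57.8 against 36.9 CPM in section 1 and 126 against 24.9 in section 4. In these sections 17.5 and 38.2% of the picked spots were also meningeal-marker spots. Mature oligodendrocyte markers summed to 1910, 571, 2625 and 4128 CPM in sections 1 to 4 against 2174, 1298, 2082 and 1811. Neuron markers were lower, 2779, 2770, 1843 and 1626 CPM against 3243, 4011, 3946 and 4541. The part of each list in the result was not tested.

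B2m, H2-D1, H2-K1 and H2-T23 were not called in choroid plexus-marker spots, where their standard errors were larger than in the other groups of spots. B2m measured 167, 158, 237 and 182.1 CPM against 134, 145, 127 and 145 (log2 fold change 0.32, standard error 0.19, edgeR adjusted p = 0.437), with the section 3 value from 17 UMIs. H2-D1 stood at 0.07 (standard error 0.244, edgeR adjusted p = 0.964) and H2-T23 at 0.01 (0.372, edgeR adjusted p = 0.998). H2-K1 measured 53.6 against 31.6 CPM in section 1 and 40.5 against 24.1 in section 4, and its fold change of 0.60 (standard error 0.25) was not called (edgeR adjusted p = 0.15). It was called without section 2, whose 4 picked spots held 0 H2-K1 UMIs (0.76, edgeR adjusted p = 0.0349), and with at least 5 markers required (1.38, edgeR adjusted p = 0.000173). Isg15 (3 UMIs) and Irf1 (20 UMIs) were scarce, and no difference was detectable at these counts, with fold changes of −0.94 (standard error 0.87, edgeR adjusted p = 0.725) and 0.76 (0.561, edgeR adjusted p = 0.606).

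**Figure D2:**
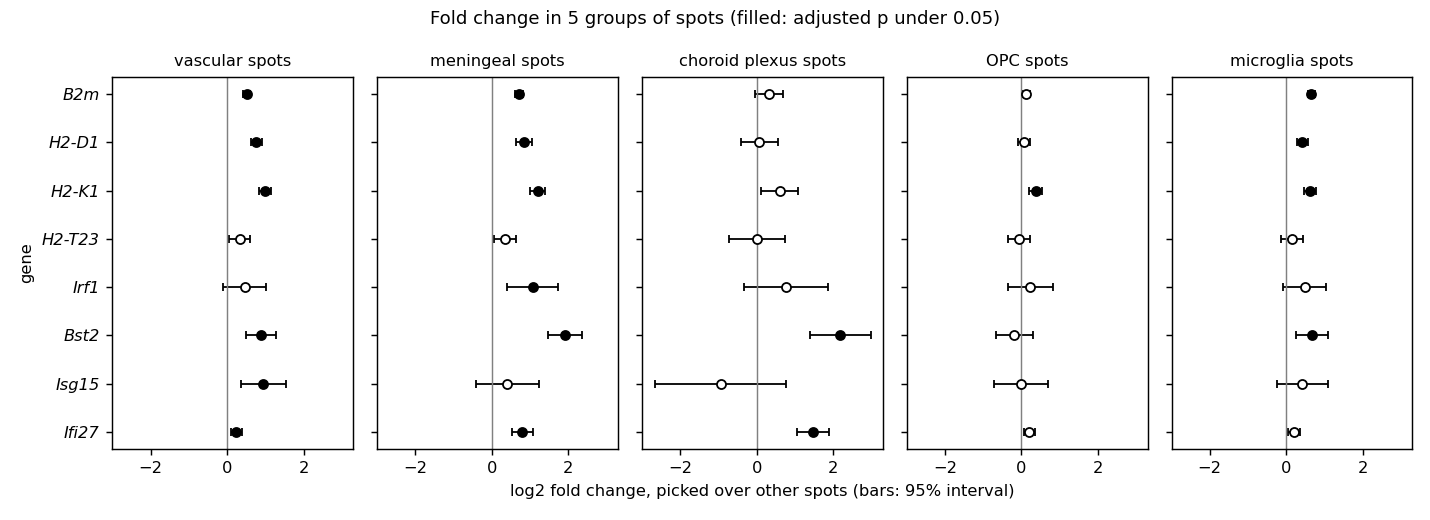
Fold change (log2, picked over all other spots, 95% interval as bars) of the 8 tested genes in 5 groups of spots, filled where the edgeR adjusted p-value was under 0.05. B2m, H2-D1 and H2-K1 are filled in the vascular, meningeal and microglia panels, Bst2 and Ifi27 in the choroid plexus panel, and H2-K1 alone in the OPC panel.

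In OPC-marker spots 1 of the 8 tested genes was higher, H2-K1, against 2.78% of 14259 genes called higher and 3.1% lower. H2-K1 measured 41.7, 45.9, 37.7 and 34.2 CPM against 34.1, 33.2, 32.4 and 23.6, higher in each section (log2 fold change 0.38, standard error 0.0886, edgeR adjusted p = 0.00761). The lowest picked value (34.2 CPM, section 4) was close to the highest value of the other spots (34.1, section 1). The call did not hold without section 2 (0.32, edgeR adjusted p = 0.138), with the top 5% of spots (0.33, edgeR adjusted p = 0.185), against spots matched on region and depth (0.32, edgeR adjusted p = 0.182) or with DESeq2 (0.38, adjusted p = 0.0922). The call was also lost without the section block and with spots of the other marker sets left out. B2m measured 164, 145, 144 and 151 CPM against 136, 145, 126 and 146 (0.12, standard error 0.0544, edgeR adjusted p = 0.228), and H2-D1 45.0, 41.9, 44.3 and 44.3 against 39.5, 40.7, 41.6 and 44.1 (0.08, 0.0797, edgeR adjusted p = 0.715). The 95% interval of the B2m fold change was 0.01 to 0.23 and that of H2-D1 −0.08 to 0.23. Ifi27 stood at 0.21 (edgeR adjusted p = 0.129), Irf1 at 0.24 (0.771), H2-T23 at −0.07 (0.866), Bst2 at −0.19 (0.783) and Isg15 at −0.02 (0.991). OPC-marker spots also held more mature oligodendrocyte markers (3000, 1709, 2671 and 2384 CPM against 2050, 1258, 2025 and 1831, 8 of 8 detected) and microglia markers (545, 565, 505 and 476 CPM against 435, 486, 454 and 433, 8 of 8). Meningeal markers summed to 35.2, 77.1, 67.9 and 28.6 CPM in sections 1 to 4 against 40.3, 46.9, 27.7 and 27.9. Vascular markers summed to 143, 219, 223 and 135 CPM against 147, 191, 174 and 156. Both lists were thus clearly higher in sections 2 and 3 and not in sections 1 and 4. The part of each list in the H2-K1 result was not tested. With Pdgfra as the only marker, 3 genes were called higher: H2-K1, H2-D1 (0.42, edgeR adjusted p = 6.42e-05) and Ifi27 (0.29, edgeR adjusted p = 0.0122). Markers of other cell types were not summed in the spots picked on Pdgfra alone, so these calls cannot be assigned to OPCs.

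Microglia, the resident macrophages of the brain, are known to transcribe class I genes, and in microglia-marker spots 4 of the 8 tested genes were higher. Over 14280 genes, 6.67% were called higher and 3.24% lower. B2m measured 218, 212, 176 and 213 CPM against 131, 138, 122 and 138 (log2 fold change 0.66, standard error 0.0471, edgeR adjusted p = 3.67e-16). H2-K1 rose by 0.62 (0.0827, edgeR adjusted p = 1.15e-07) and H2-D1 by 0.42 (0.0747, edgeR adjusted p = 3.75e-05), each higher in all 4 sections. Bst2 rose by 0.68 (0.216, edgeR adjusted p = 0.0342), with 5.84 against 6.12 CPM in section 1 and 10.5 against 4.67 in section 2. Bst2 lost its call in 6 of 13 alternatives, among them without section 2 (0.30, edgeR adjusted p = 0.683) and without section 4 (0.71, edgeR adjusted p = 0.0594). H2-K1 and H2-D1 each lost the call in 1 alternative, and B2m kept it in all 13. H2-T23, Irf1, Isg15 and Ifi27 were not called (edgeR adjusted p = 0.646, 0.359, 0.536 and 0.0957). These spots also held more border macrophage markers, 44.3 to 79.1 CPM against 17.2 to 27.1. Mature oligodendrocyte markers summed to 3085, 1519, 2994 and 2362 CPM in sections 1 to 4 against 2045, 1274, 1983 and 1828. Meningeal markers summed to 47.7, 103, 62.0 and 45.8 CPM against 39.1, 44.1, 28.0 and 26.0. Vascular markers summed to 191, 229, 187 and 188 CPM against 142, 189, 177 and 150. Neuron markers were lower, 2521, 3212, 3586 and 3902 CPM against 3239, 4089, 3979 and 4514. The part of each list was not tested.

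**Figure D3:**
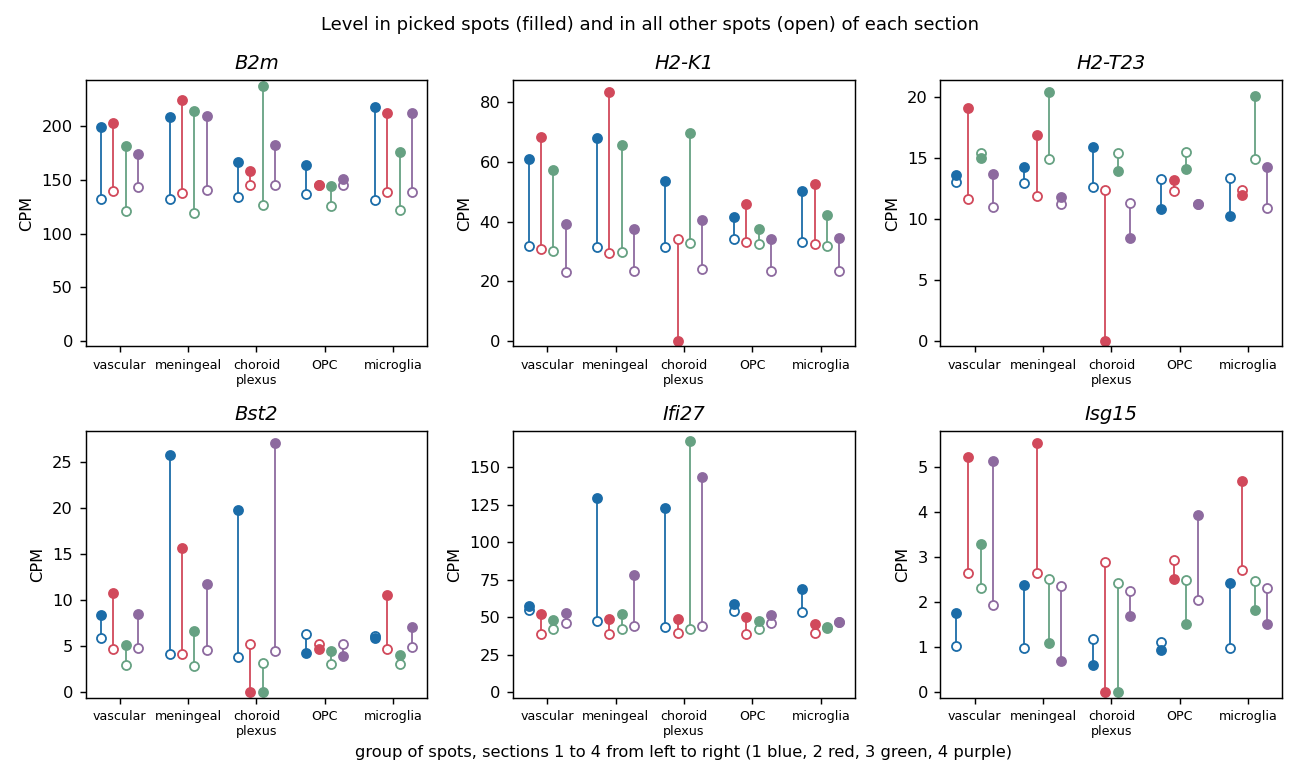
Levels (CPM) of 6 of the genes in the picked spots (filled) and in all other spots (open) of each section, for 5 groups of spots. B2m and H2-K1 are higher in the picked spots of all sections for vascular, meningeal and microglia markers, and the choroid plexus values of sections 2 and 3 come from 4 and 7 spots.

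Ranked by mean level over sections, the groups of spots gave different orders for different genes. For B2m the order was meningeal (214 ± 7.39 CPM), microglia (205 ± 19.3), vascular (189 ± 13.96), choroid plexus (186 ± 35.7), ependymal (170 ± 22.5), oligodendrocyte (159 ± 12.6) and OPC (151 ± 8.86), above spots of none of the 7 marker sets (122 ± 11.5, 797, 1323, 1274 and 810 spots). Neighbours in this order overlapped in range, except OPC-marker spots (144 to 164 CPM) and spots of no marker set (109 to 133). The choroid plexus values of B2m in sections 2 and 3 came from 13 and 17 UMIs. H2-K1 ran from 63.7 ± 19.2 in meningeal- to 24.4 ± 2.48 CPM in unmarked spots, with vascular-marker spots at 56.5 ± 12.4 and ependymal-marker spots at 50.9 ± 9.15. Ifi27 took another order, led by choroid plexus (121 ± 51.3 CPM), ependymal (99.4 ± 56.6) and oligodendrocyte-marker spots (86.0 ± 31.3), with unmarked spots at 37.4 ± 1.98. These leading groups ranged over 48.6 to 168, 51.8 to 179 and 62.4 to 131 CPM, so their order is uncertain. The choroid plexus mean of Ifi27 includes section 2 (4 UMIs) and section 3 (12 UMIs). In section 1 choroid plexus-marker spots had 123 CPM of Ifi27 and meningeal-marker spots 129.6. Bst2 averaged 14.9 ± 8.08 CPM in meningeal- and 13.6 ± 10.0 in ependymal-marker spots. Choroid plexus-marker spots could be ranked for Bst2 in sections 1 and 4 alone, where they had 19.8 and 27.0 CPM against 25.7 and 11.8 in meningeal- and 26.8 and 15.99 in ependymal-marker spots, so the order differed between those sections. H2-T23 measured 15.8 ± 3.68 CPM in meningeal- and 15.4 ± 2.59 in vascular-marker spots, 13.1 ± 1.98 in unmarked spots and 9.84 ± 1.36 in oligodendrocyte-marker spots, where it was lower than in the other spots of all 4 sections. Ependymal and oligodendrocyte-marker spots were picked like the vascular ones and not tested.

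Other genes of presentation and the interferon response were counted from lists, to be read against the share of all genes called in each comparison. Without the 9 genes, 97 of 102 listed genes of class I and class II presentation, interferon signalling and interferon response were in the files. In vascular-marker spots 23 of 74 tested genes were higher (6.21% over all genes) and none lower, with a median log2 fold change of 0.40 against −0.01 over all genes. In meningeal-marker spots 33 of 76 were higher (10.2% over all genes, median 0.60 against −0.02), in choroid plexus-marker spots 9 of 72 (5.05%, median 0.37 against −0.04) and in microglia-marker spots 19 of 74 (6.67%, median 0.34 against −0.00). In OPC-marker spots none of 72 was higher and 1 was lower, with a median of 0.12 against 0.00. Over all genes 2.78% were higher and 3.1% lower there, so both counts are near those shares. That gene was Ly6e, a lymphocyte surface antigen gene (−0.29, standard error 0.057, edgeR adjusted p = 0.0014). Outside OPC-marker spots DESeq2 also called no listed gene lower, and at an unadjusted p under 0.05 in edgeR the genes lower were 1 of peptide loading and 1 interferon-stimulated gene in choroid plexus-marker spots.

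Peptide processing and loading genes other than B2m were higher in 4 of 13 cases in vascular-marker, 7 of 13 in meningeal-marker, 1 of 13 in choroid plexus-marker and 3 of 13 in microglia-marker spots, where 6.21, 10.2, 5.05 and 6.67% of all genes were, so the choroid plexus count is near that share. Tapbp, which encodes the tapasin that bridges class I molecules to the peptide transporter, was higher in all 4 (log2 fold change 0.56, 0.82, 1.06 and 0.34, edgeR adjusted p = 0.000275, 3.77e-05, 0.00273 and 0.0422). The transporter genes Tap1 (1.19) and Tap2 (1.05) were called in meningeal-marker spots, and the immunoproteasome gene Psmb8 in vascular (1.07), meningeal (1.14) and microglia-marker spots (1.27). Class II genes, which present extracellular antigen, were higher in 4 of 7, 5 of 7, 3 of 6 and 6 of 7 cases in the same order of groups. They included Cd74, the invariant chain, at 1.78, 2.69, 1.65 and 1.44. OPC-marker spots had none of 13 and none of 7 (1 of 7 class II genes at an unadjusted p under 0.05, none by DESeq2), where 2.78% of all genes were higher. Lists this short cannot set a count of 0 apart from that share. Among the genes with the largest differences were Usp18, which removes Isg15 from proteins (2.13, edgeR adjusted p = 0.000655), and H2-Q7 (1.85, 5.41e-05) in vascular-marker spots. Meningeal-marker spots were led by the chemokine gene Ccl7 (3.92, edgeR adjusted p = 0.000148, 22 UMIs against 15) and the class II chains H2-Ab1 (2.73) and H2-Aa (2.70), choroid plexus-marker spots by Mr1 (2.19, edgeR adjusted p = 8.06e-05), a class I-like gene, and Lgals3bp (2.14), and microglia-marker spots by Irf5 (1.79), H2-Oa (1.70) and H2-DMb1 (1.56).

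Interferon-stimulated genes other than Isg15, Bst2 and Ifi27 were higher in 13 of 28 cases in vascular-marker, 12 of 27 in meningeal-marker, 3 of 27 in choroid plexus-marker, 0 of 27 in OPC-marker and 7 of 29 in microglia-marker spots. Of 13 interferon receptor and signalling genes, 1, 2, 1, 0 and 1 were higher in the same order, near the 6.21, 10.2, 5.05, 2.78 and 6.67% called over all genes. Of the interferon regulatory factors other than Irf1, 0 of 8, 2 of 9, 0 of 8, 0 of 8 and 2 of 8 were higher, and of the other class I heavy chains 1 of 4, 3 of 5, 1 of 5, 0 of 4 and 0 of 4. Of the chemokines, 1 was tested in vascular-marker spots (0 higher) and 2 in meningeal-marker spots, Ccl7 and Ccl5, both higher. Ifnar2, a chain of the type I interferon receptor, was the gene called in vascular (0.39), meningeal (0.51) and choroid plexus-marker spots (0.78), beside Irf9 in meningeal-marker spots, and Ifngr1 was called in microglia-marker spots (0.99). These were named after their values were seen, as were Tapbp, Tap1, Tap2 and Psmb8.

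Grouping spots by overall expression in place of markers gave 10 region clusters per section, made without the 9 genes or the markers. In sections 1 to 3, B2m, H2-D1 and H2-K1 were highest in clusters whose leading genes included Acta2, a smooth muscle actin gene, and Mgp, expressed by fibroblasts and vessel walls. In section 1 a cluster of 13 spots led by Ptgds, Tagln, Acta2, Mgp and Myl9 had 770 CPM of B2m (95% interval 613 to 955) against 136 in the rest, 325 of H2-K1 against 33.4 and 251 of H2-D1 against 39.0. Clusters led by Acta2 and Mgp in section 2 (55 spots) and section 3 (45 spots) had 381 and 388 CPM of B2m, 196 and 152 of H2-K1 and 171 and 200 of H2-D1. In section 4 B2m was highest in 43 spots led by the pituitary hormone genes Prl, Gh and Pomc (253 CPM, interval 193 to 327, against 145). Ifi27 was highest in clusters led by Ttr in sections 1 (349 CPM, 34 spots), 3 (168 CPM, 24 spots) and 4 (251 CPM, 24 spots). The Ttr-led cluster of section 1 also had 76.3 CPM of Bst2 (50 UMIs) against 4.08 in the rest. All these clusters were picked for their high levels, which the intervals do not allow for.

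Among clusters with at least 20 UMIs of H2-T23, it was highest in all 4 sections in clusters led by Cplx3 or Nxph3, genes known from deep cortical layers, beside Ighm, Trbc2 or Myl4. These had 25.0, 24.5, 29.6 and 19.04 CPM (81, 68, 80 and 36 UMIs) against 11.2, 11.4, 13.4 and 10.4 in the rest of the section. The lower bounds of their intervals were 19.9, 19.03, 23.5 and 13.3 CPM. These clusters were picked for their high H2-T23 level, which the intervals do not allow for, so the difference was not tested. By level alone, H2-T23 was highest in the same Acta2 and Mgp clusters as B2m in sections 1 and 3 (46.4 CPM from 5 UMIs and 35.5 CPM from 11) and in the Ttr-led cluster of section 4 (24.4 CPM from 4). Across the 40 clusters, log2(CPM + 1) of B2m correlated with that of H2-K1 (Pearson r = 0.86) and H2-D1 (0.83) but little with that of H2-T23 (0.21). The points share sections and depth, so these are descriptions.

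**Figure D4:**
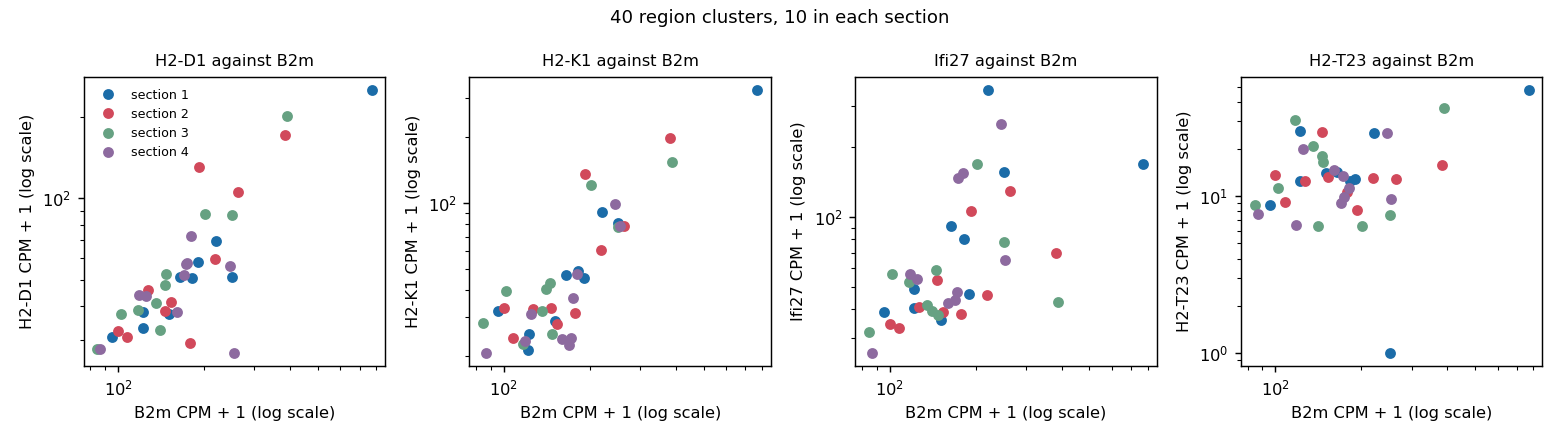
CPM + 1 of H2-D1, H2-K1, Ifi27 and H2-T23 against that of B2m (log scales) in the 40 region clusters, 10 from each section. H2-D1 and H2-K1 rise with B2m (r = 0.83 and 0.86), while H2-T23 shows little relation (r = 0.21), and 1 cluster had 0 H2-T23 UMIs.

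The genes most like each member over the 40 clusters were ranked among 9427 genes with at least 1000 UMIs. H2-K1 was most like Ifitm3 (r = 0.92), Vim (0.92) and Laptm4a (0.92), B2m most like Laptm4a (0.89) and Il6st (0.87), and H2-D1 most like B2m (0.83), H2-K1 (0.83) and Tpcn1 (0.82). Ifi27 was most like Cat (0.92), Fxyd1 (0.89) and Cab39l (0.89). For H2-T23 the leading genes were Pygm (0.73), Pik3r3 (0.72) and Gpat4 (0.71), and none of B2m, H2-D1, H2-K1 or Ifi27 was among them.

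The 27 Cxcl10 UMIs lay in 21 spots. Section 2 held 13 of these spots, and 1 of them had 4 Cxcl10 UMIs and 3 Isg15 UMIs, while no other section had more than 1 Cxcl10 UMI in a spot. Ependymal-marker spots, 10% of the spots of a section, held 11 of the 27 UMIs, 10 of them in section 2 (2.88 CPM against 0.268 in its other spots). Meningeal- and microglia-marker spots, also 10% each, held 5 UMIs each, vascular-marker spots 3, OPC-marker and choroid plexus-marker spots 1 each and oligodendrocyte-marker spots 0. Of the 21 spots, 2 held an Isg15 UMI. A cluster of 21 spots in section 2 led by the cilium genes Tmem212, Dynlrb2 and Rsph1 held 4 Cxcl10 UMIs (14.4 CPM), 5 Isg15 UMIs (18.1 CPM) and 9 Bst2 UMIs (32.5 CPM), the highest level of each gene among the clusters of that section. With so few UMIs no difference in Cxcl10 between groups of spots could be tested at this depth.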

How the data were processed

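Fresh frozen brain of Nf1+/- mice was cut at 10 µm, and 4 sections were profiled on Visium slides. The deposited files hold raw UMI counts, which the authors made with Space Ranger 1.3.1 per the file headers; the build, mm10, is from the submitters' processing notes. Sections are numbered in accession order. The 9 genes, the gene and marker lists and the tests were chosen with earlier results of these data known.

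Spots with at least 500 UMIs were kept, and their counts were summed by section and spot group. The sums were tested with edgeR 4.0.16 (R 4.3.3) by the quasi-likelihood test after TMM and filterByExpr. Section was a block, and p-values were adjusted by Benjamini-Hochberg over all genes tested. Each standard error was derived from the fold change and its F statistic, with normal 95% intervals. The F statistic rests on a variance drawn toward that of all genes, so standard errors can be smaller than the spread of 1 gene between sections. H2-D1 in vascular-marker spots, for example, had log2 ratios of 0.84, 0.82, 0.95 and 0.30 in sections 1 to 4 and a standard error of 0.0779. Picked and other spots come from the same tissue section, which pairs them, and their deviations correlated at 0.0848 to 0.601. Region clusters are from k-means (scikit-learn 1.9.0) after reduction of 1000 variable genes to 20 components. The edgeR step was tested on simulated counts for the vascular and choroid plexus comparisons, and the other steps were not tested in this way. Alternatives were the top 5% or 20% of spots, matched spots, spots of other marker sets left out, Pdgfra alone, 2 or 5 choroid plexus markers, sections with at least 20 picked spots, scaling by total, DESeq2 1.42.0, no filter, no block, all deposited spots, thinning and leaving out each section. Named genes are the 9 and, in each comparison, the 3 pathway genes with the largest fold change past an adjusted p-value of 0.05; others named were chosen after their values were seen. Some results on single genes are not reported here.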

Additional observations from a re-analysis of the deposited data

Results flagged for a closer look

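Of 63 values compared across the 4 sections, 3 had 1 section far from the others, where chance gives about 1 in 20. For B2m in vascular-marker spots, the log2 ratio of picked to other spots was 0.280 in section 4, against 0.54 to 0.59 in sections 1 to 3. For H2-D1 and H2-K1 in choroid plexus-marker spots, section 2 stood apart at −2.75 and −2.50. Its 4 picked spots held 0 UMIs of both genes, and both ratios follow from the 0.5 UMI added to each count. At 3 UMIs those spots would read 36.4 CPM, and the exact Poisson interval for 0 UMIs there reached 44.8 CPM. The other spots of section 2 had 40.9 CPM of H2-D1 and 34.3 CPM of H2-K1, both below that upper limit. The 0 counts therefore cannot show a lower level of either gene in those spots.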

How the results depend on the processing

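B2m, H2-D1 and H2-K1 kept their direction and their call in vascular- and meningeal-marker spots under all 13 alternatives. Fold changes called in the main analysis kept the call in 206 recomputed values and lost it in 42, and 0 of them reversed. No gene of the 9 was called lower under any alternative.

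Without the replicate block for section, 3 genes were called higher in vascular-marker spots in place of 6, 2 in microglia-marker spots in place of 4 and 0 in OPC-marker spots in place of 1, and over all genes 231, 198 and 8 were higher and 0 lower in each. DESeq2 called fewer genes in all 5 groups: 4 (vascular), 5 (meningeal), 1 (choroid plexus), 0 (OPC) and 3 (microglia), in place of 6, 6, 2, 1 and 4. The OPC count was also 0 with the top 5% of spots, with matched spots and with spots of the other marker sets left out, and 3 with Pdgfra alone. With each section left out in turn, the counts ran from 3 to 5 (vascular), 5 to 6 (meningeal), 2 to 3 (choroid plexus), 0 to 1 (OPC) and 3 to 4 (microglia). The lowest vascular and OPC counts came without section 2. The cause was not tested.

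All 26 reversals were of uncalled fold changes. With sections left out in turn, Isg15 in meningeal-marker spots ran from −0.30 to 0.72, H2-D1 and H2-T23 in choroid plexus-marker spots from −0.29 to 0.21 and −0.63 to 0.13, and H2-T23 and Isg15 in OPC-marker spots from −0.17 to 0.0057 and −0.36 to 0.16. In choroid plexus-marker spots H2-D1 was −0.015 with DESeq2 and −0.055 without other marker sets, H2-T23 −0.019 with no filter, −0.12 with DESeq2 and −0.32 with 2 markers, and Isg15 0.085 with 5 markers. In OPC-marker spots without other marker sets, B2m was −0.036, H2-D1 −0.10, Bst2 0.18 and Isg15 0.11. With the top 5%, H2-T23 was 0.050, Irf1 −0.38 and Isg15 0.36, and with the top 20%, Bst2 0.017 and Isg15 0.12. With matched spots H2-T23 was 0.054 and Bst2 0.031, Bst2 was 0.36 with Pdgfra alone, and Isg15 0.021 with no block. Requiring 5 choroid plexus markers left section 2 with 0 spots. Depth limits Cxcl10, Isg15 and Irf1 most.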
